A study of Caenorhabditis elegans with 2 samples.

Results

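The nuclear genes of the respiratory chain and ATP synthase were examined for regions enriched in chromatin immunoprecipitation and sequencing (ChIP-seq) of NHR-237, a nuclear hormone receptor, in L4 larvae of Caenorhabditis elegans. The set comprised 50 of 19973 nuclear protein-coding genes of the Ensembl annotation of WBcel235, the ce11 build. Of these, 28 were listed by name, and 22 more carried the symbol prefixes nuo-, nduf-, cox-, atp-, asb-, asg- or ucr-. By complex, 13 belong to complex I, 4 to complex II, 7 to complex III, 7 to complex IV as subunits and 9 to ATP synthase. Cytochrome c is encoded by 2 of them, and 8 encode factors that assemble complex IV.

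The samples formed 1 group of 2 biological replicates of whole worms of both sexes. Strain OP228 carries the unc-119 allele ed3 and the transgene wgIs228, which supplies NHR-237 with a C-terminal tag of GFP and FLAG. There was no second genotype, stage or treatment. Signal is an average over all tissues, so binding in few cells and weak binding in many cannot be told apart.

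The respiratory chain passes electrons from NADH (complex I) and succinate (complex II) through ubiquinone to complex III, then by cytochrome c to complex IV, which reduces oxygen. The proton gradient made by complexes I, III and IV drives ATP synthase. Most subunits are encoded in the nucleus and imported, while a core set is encoded by mitochondrial DNA. In worms, partial loss of several subunits is known to lengthen life. Nuclear hormone receptors are transcription factors that bind DNA through zinc fingers.

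For each gene the strongest region with its summit within 2000 bp of a 5′ end was taken, by the authors' signal value. Rank 1 is the highest signal in a list. The list called on both replicates together (the pooled list) holds 26787 regions, background included, and the lists of replicates 1 and 2 hold 30000 each. The authors' list thresholded by IDR, a measure of irreproducibility between replicates, holds 237 peaks (IDR peaks). These are the 237 strongest pooled regions, and some of them ranked low in 1 replicate. Signal at the median region was 9.4 in the pooled list, 6.8 in replicate 1 and 4.3 in replicate 2. Read depth is unknown, since the lists give no counts. With no second group, no test between conditions was possible, and counts over the 50 genes are set beside the same counts over all nuclear genes.

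The strongest regions of the set lay within 2000 bp of cytochrome c oxidase and cytochrome c genes. Letters are shown for 3 of these peaks, at cox-6B and cyc-2.1. At the cox-6B peak and the stronger cyc-2.1 peak another gene's 5′ end was nearer, 113 and 177 bp from the summit. Each sequence reaches 100 bp to either side of the summit and is written 5′ to 3′ on the strand of the gene. Capitals mark matches, on either strand, to 9 short sequences, described with their counts after the account of the genes, and adjoining matches run together. The cox-6B peak and the stronger cyc-2.1 peak share a run of 12 bases, the first capitals of each, which in cox-6B runs on into CAACGCA. In ce11, the window of cox-6B is chrIII:2785961-2786161 (plus strand), in an intron. The windows of cyc-2.1 are chrIV:4749963-4750163 (rank 29, between genes) and chrIV:4748566-4748766 (rank 184, in an intron), both on the minus strand. The letters come from the RefSeq copy of the genome.
cox-6B, rank 66: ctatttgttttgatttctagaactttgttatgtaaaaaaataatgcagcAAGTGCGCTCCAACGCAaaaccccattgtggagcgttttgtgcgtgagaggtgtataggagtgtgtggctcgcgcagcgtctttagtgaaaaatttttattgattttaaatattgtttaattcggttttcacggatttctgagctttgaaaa
cyc-2.1, rank 29: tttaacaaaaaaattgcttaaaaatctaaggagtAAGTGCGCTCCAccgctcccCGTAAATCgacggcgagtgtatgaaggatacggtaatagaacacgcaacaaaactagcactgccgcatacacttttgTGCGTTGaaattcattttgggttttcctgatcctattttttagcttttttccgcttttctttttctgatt
cyc-2.1, rank 184: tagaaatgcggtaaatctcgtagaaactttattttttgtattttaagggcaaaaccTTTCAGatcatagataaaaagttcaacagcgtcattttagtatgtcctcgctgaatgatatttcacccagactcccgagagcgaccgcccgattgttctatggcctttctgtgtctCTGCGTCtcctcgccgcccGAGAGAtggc

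Of the 50 genes, 5 had an IDR peak within 2000 bp (10%), where 1.36% of all nuclear protein-coding genes did. They were cyc-2.1, cox-5B, cox-6B, cox-5A and atp-1. A pooled region of the top 1000 lay near 9 genes (18%, against 5.35% of all genes), the 5 above and cox-6A, cyc-1, cox-4 and nuo-5. Of these 9, 8 were within the top 500, as were 2.82% of all genes. Some pooled region of any rank lay near 43 genes (86%, against 67.4%). Over those 43 the median best rank was 4836, and over the 13465 genes of the genome with a region it was 9368. The members were known from earlier results of these data to include genes with strong peaks, so these shares are a description. Whether such regions appear in ChIP of any tagged protein was not tested.

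**Figure D1:**
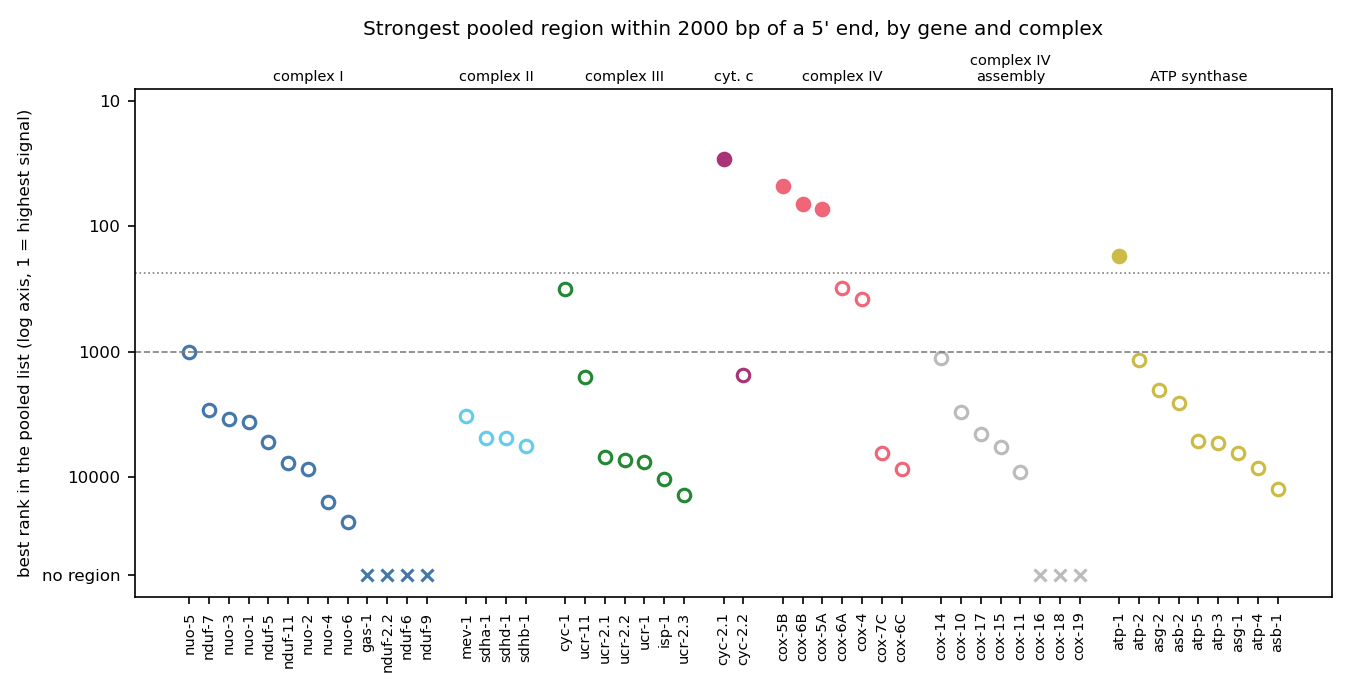
Best rank in the pooled list of each of the 50 genes, by complex, on an inverted log axis (1 is the highest signal). Filled points have an IDR peak, the dotted line is rank 237, the dashed line rank 1000, and crosses mark genes with no region within 2000 bp. Of the 7 complex IV subunit genes, 5 lie above the dashed line.

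Complex IV, cytochrome c oxidase, held most of the strong regions. Of its 7 nuclear subunit genes, 5 had a pooled region of the top 1000 (71.4%, against 5.35% of all genes). An IDR peak lay near 3 of the 7 (42.9%, against 1.36%). The median best rank was 312. Outside these 7 genes, 4 of the other 43 had a region of the top 1000 (9.3%) and 2 had an IDR peak (4.65%).

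cox-5B (chromosome I, 9788725 to 9790050) encodes the zinc-binding subunit 5B. Its peak (9788535 to 9788874) had its summit 20 bp upstream of the 5′ end and ranked 48 in the pooled list with a signal of 74.4. The overlapping region ranked 37 in replicate 1 (signal 60.2) and 111 in replicate 2 (signal 17.7). It was high in both replicates. A second IDR peak (9789901 to 9790240, rank 233, signal 31.4) had its summit just past the annotated end of the gene, 1062 bp downstream of the nearer 5′ end. That region ranked 374 in replicate 1 (signal 19.3) and 17734 in replicate 2 (signal 4.0), so only replicate 1 placed it high.

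cox-6B (chromosome III, 2699663 to 2786859) encodes a subunit of the intermembrane space side. Its summit lay 141 bp upstream of the inner of its 2 annotated 5′ ends and in an intron of the transcript that starts far upstream. Rank 66 in the pooled list (signal 59.1, region 2785891 to 2786230) was matched by rank 64 in replicate 1 (signal 41.3) and 148 in replicate 2 (signal 16.2). This region is shared with neighbours. The nearest 5′ end, at 113 bp, is that of Y71H2AM.20 on the other strand, annotated by RefSeq as an activator of protein phosphatase 2A. Downstream on the same strand, 791 bp from the summit, starts nduc-2, a complex I subunit gene outside the set, which overlaps the end of cox-6B.

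cox-5A (chromosome III, 12905491 to 12906619) encodes subunit 5A. Its peak (12905009 to 12905348) lay 312 bp upstream, with no other protein-coding 5′ end within 2000 bp. It ranked 73 in the pooled list (signal 57.1), 62 in replicate 1 (signal 41.6) and 90 in replicate 2 (signal 20.04). The ranks were high in all lists.

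cox-6A and cox-4 came just below the IDR peaks. At cox-6A (chromosome III, 5081724 to 5082995, subunit 6A) 2 overlapping regions had summits 964 and 764 bp upstream, with ranks 312 and 596 (signals 27.4 and 22.3). Both overlapped the same region of replicate 1 (rank 464, signal 18.1) and of replicate 2 (rank 84, signal 20.9), where it was among the strongest. The annotation places the snRNA gene F54D8.7 there, with its 5′ end 138 and 62 bp from these summits, so signal at cox-6A and at this gene cannot be told apart. At cox-4 (chromosome I, 13658171 to 13659128, subunit 4) the region 377 bp upstream ranked 378 (signal 25.7). It ranked 412 in replicate 1 (signal 18.9) but 18447 in replicate 2 (signal 3.9), so 1 replicate carried it. A pseudogene, WBGene00012355, starts 74 bp from this summit.

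The other subunit genes, cox-7C and cox-6C, had weak regions. The best pooled region of cox-7C ranked 6364 (signal 11.9) and that of cox-6C 8629 (signal 10.8), and both summits lay downstream of the 5′ end, by 1051 and 1372 bp. Subunit genes of this complex therefore ran from rank 48 to rank 8629.

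None of the 8 genes for complex IV assembly had a region of the top 1000, against 5.35% of all genes. These 8 are too few to tell a difference. These proteins make the heme of the enzyme (cox-10, cox-15), deliver copper (cox-11, cox-17) or help to insert and join subunits (cox-18, cox-14, cox-16). The best was cox-14 at rank 1111 (signal 18.5), with the summit 1776 bp upstream and closer to cts-1, the citrate synthase gene. Its best ranks were 4937 in replicate 1 (signal 9.8) and 2115 in replicate 2 (signal 8.2). cox-10 followed at rank 3035 (signal 14.5), 74 bp upstream. cox-17, cox-15 and cox-11 ranked 4509, 5728 and 9086. cox-16, cox-18 and cox-19 had no pooled region, and cox-18 had none in either replicate's list. Some pooled region lay near 5 of the 8 (62.5%, against 67.4% of all genes). cox-16 had rank 18449 in replicate 1 and none in replicate 2, and cox-19 had 26262 and 29377.

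Cytochrome c, the mobile carrier between complexes III and IV, is encoded by cyc-2.1 and cyc-2.2, with unlike values. cyc-2.1 (chromosome IV, 4747895 to 4749012) had 2 IDR peaks. The stronger (4749974 to 4750132, rank 29, signal 123.2) lay 1051 bp upstream, and was high in replicate 1 (rank 27, signal 85.9) and replicate 2 (rank 37, signal 37.8). It lies nearer to other genes, 177 bp from the 5′ end of Y17G9B.5, which RefSeq annotates as a homolog of the mitochondrial protein ECSIT, and 285 bp upstream of the ribosomal protein gene rpl-20. rpl-20 is on the same strand as cyc-2.1 and ends 110 bp before it.

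The weaker cyc-2.1 peak (4748496 to 4748835, rank 184, signal 35.0) lay in an intron, 217 bp upstream of the inner of 2 annotated 5′ ends. No other protein-coding 5′ end was nearer. It ranked 124 in replicate 1 (signal 28.9) and 5669 in replicate 2 (signal 6.3), so only replicate 1 placed it high. At cyc-2.2 (chromosome V, 12611682 to 12612218) the best region ranked 1540 (signal 16.9), lay 1137 bp downstream of the 5′ end and was nearest to cubn-1. It overlapped a region of rank 2548 in replicate 1 and none in replicate 2, where the best within 2000 bp ranked 8448.

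**Figure D2:**
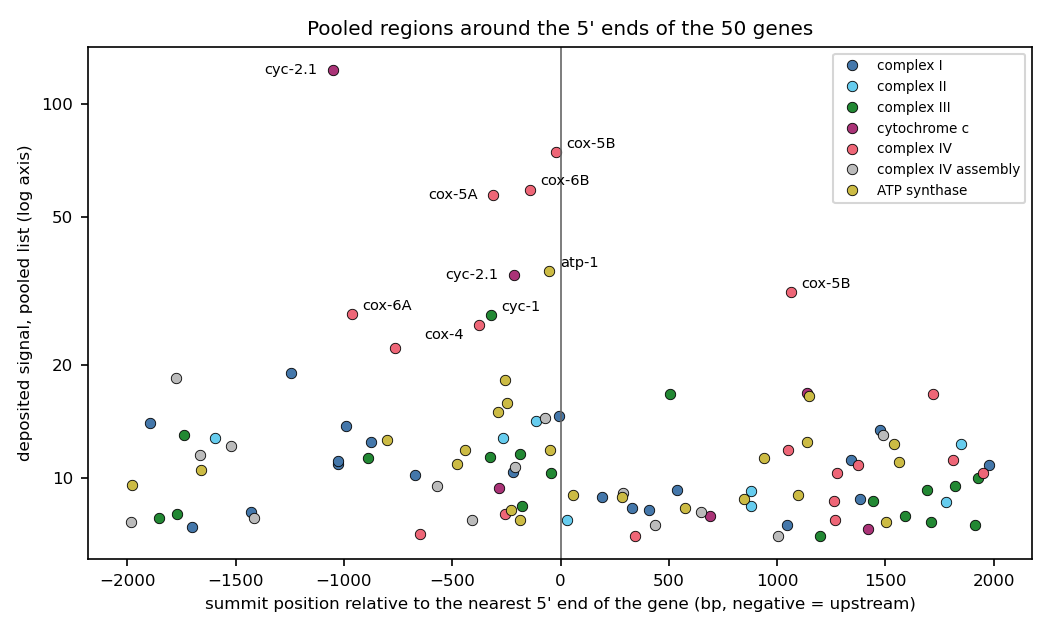
Pooled regions within 2000 bp of the 5′ ends of the 50 genes, by summit position (bp, negative is upstream) and deposited signal (log axis), with the strongest named and colours for complexes. The named regions lie upstream, apart from the second cox-5B region at 1062 bp downstream.

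ATP synthase had 1 gene of 9 in the top 1000 (11.1%, against 5.35% of all genes). That gene, atp-1, also had an IDR peak (11.1%, against 1.36%). With 1 gene counted, these 9 are too few to tell a difference. atp-1 (chromosome I, 12652277 to 12654655) encodes the alpha subunit, which with the beta subunit forms the catalytic head. Its peak (12652056 to 12652395, rank 172, signal 35.8) lay 51 bp upstream of atp-1 and 139 bp upstream of mcrs-1 on the other strand. It ranked 126 in replicate 1 (signal 28.9) and 780 in replicate 2 (signal 10.3). atp-2, for the beta subunit, had rank 1153 (signal 18.3) 255 bp upstream, a region that ranked 1605 in replicate 1 and overlapped none of replicate 2.

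The remaining ATP synthase genes ranked from 2021 (asg-2) to 12503 (asb-1). asg-2 (X) and asg-1 (I) both encode subunit g of the membrane part. Their best pooled ranks were 2021 and 6365, and their best in replicate 1 were 815 and 973, against 17014 and 9512 in replicate 2. asb-1 and asb-2 encode subunit b of the stator, and asb-1 is known as the germline form. asb-2 ranked 2577 (291 bp upstream) and asb-1 12503 (signal 9.6, 1980 bp upstream). In replicate 1 asb-2 had rank 16205 and asb-1 no region, and in replicate 2 they had ranks 1082 and 1469. atp-5 (subunit d) ranked 5103, atp-3 (the oligomycin sensitivity protein) 5340 and atp-4 (coupling factor 6) 8477. In each of these paralog pairs the gene on X had the better pooled rank, but none reached the top 1000 of the pooled list.

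Complex III had 1 gene of 7 in the top 1000 (14.3%, against 5.35% of all genes). With 1 gene counted, these 7 are too few to tell a difference. cyc-1 (chromosome I, 8022674 to 8024422) encodes cytochrome c1, which hands electrons to cytochrome c. Its region (8024573 to 8024912) lay 321 bp upstream and ranked 315 (signal 27.3), 1661 in replicate 1 (signal 12.9) and 203 in replicate 2 (signal 14.7). Here replicate 2 was the higher. ucr-11 (a small subunit) ranked 1592 (signal 16.8), with its summit in its own 3′ UTR and 249 bp upstream of spg-20.

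The core subunit genes ucr-1, ucr-2.1, ucr-2.2 and ucr-2.3 ranked 7577, 6882, 7337 and 13898. isp-1, which encodes the Rieske iron-sulfur protein and is known for a long-lived mutant, ranked 10249 (signal 10.3), 43 bp upstream. Signals of the 3 ucr-2 genes ran from 9.3 to 11.6, beside a median of 9.4 for the pooled list. In replicate 1 ucr-2.1, ucr-2.2 and ucr-2.3 had ranks 9696, 3284 and 2820. In replicate 2 ucr-2.1 had no region, and the others had ranks 20261 and 10150.

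Complex II, succinate dehydrogenase, had no gene of 4 in the top 1000, against 5.35% of all genes. These 4 are too few to tell a difference. mev-1, whose mutant is known for sensitivity to oxygen, encodes the cytochrome b560 anchor and ranked 3254 (signal 14.2, 114 bp upstream), with rank 1256 in replicate 1 (signal 13.8) and no region in replicate 2. sdha-1 had rank 8083 in replicate 1. sdha-1 (flavoprotein), sdhd-1 (the small anchor) and sdhb-1 (iron-sulfur protein) ranked 4836, 4901 and 5669. sdha-2, a second flavoprotein gene outside the set, ranked 9437 (signal 10.5), with ranks 10939 and 4476 in replicates 1 and 2. Of the 4 genes of the set, sdhb-1 alone had a region in replicate 2, at rank 2054 (signal 8.2).

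Complex I had 1 gene of 13 in the top 1000 (7.69%, against 5.35% of all genes), at its very edge. With 1 gene counted, these 13 are too few to tell a difference. The 13 leave out nduc-2, a complex I subunit gene without these prefixes, which had the IDR peak shared with cox-6B (rank 66). nuo-5 (chromosome V, 2698972 to 2706984, the largest iron-sulfur subunit) had rank 1000 (signal 19.1), 1246 bp upstream, inside an intron of Y45G12B.2, whose 5′ end was nearer (548 bp). It ranked 1101 in replicate 1 (signal 14.2) and 7582 in replicate 2 (signal 5.7). nduf-7 (iron-sulfur protein 7) followed at rank 2929 (signal 14.6, 6 bp upstream), then nuo-3 at 3407 and nuo-1, the NADH-binding flavoprotein, at 3637.

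The other complex I genes with a region were nduf-5 (5227), nduf-11 (7678), nuo-2 (8578), nuo-4 (15879) and nuo-6 (22894), in pooled ranks. nuo-6, like isp-1, is known for a long-lived mutant, and it had no region in either replicate's list. gas-1, whose mutant is known for sensitivity to volatile anaesthetics, and its paralog nduf-2.2 encode a core subunit of the arm that reduces ubiquinone, and neither had a pooled region. nduf-6 and nduf-9 had none either, so 4 of 13 lacked one. The 9 with a pooled region made up 69.2%, near the 67.4% of all genes. By replicate, gas-1 had rank 7951 in replicate 2 and none in replicate 1, and nduf-2.2 had 2874 in replicate 1 and 3167 in replicate 2. nduf-6 had rank 26439 in replicate 2 and none in replicate 1, and nduf-9 had 28475 and 4184.

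Both replicates placed a region of the top 1000 near 6 of the 50 genes (12%, against 1.83% of all genes), which were cyc-2.1, cox-5A, cox-5B, cox-6A, cox-6B and atp-1. Complex IV subunits made up 4 of the 6. Replicate 1 alone had 9 genes with such a region (18%, against 5.1%) and replicate 2 alone had 8 (16%, against 4.89%). Genes high in 1 replicate only were asg-1, asg-2 and cox-4 in replicate 1, and cyc-1 and atp-5 in replicate 2.

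Across the 37 genes with a region in both lists, Spearman's rho of the best ranks was 0.406, and over all 10947 genes of the genome with a region in both it was 0.218. Over the 28 of the 37 with no pooled region of the top 1000 it was -0.0093, a subset not computed for all genes. The pooled list was called on both replicates together, so this choice left out the genes ranked high in both. The value therefore cannot tell whether the ranks of weaker genes repeat between replicates. For each value of rho the genes share libraries, and a gene's best regions in the replicates can be different ones.

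**Figure D3:**
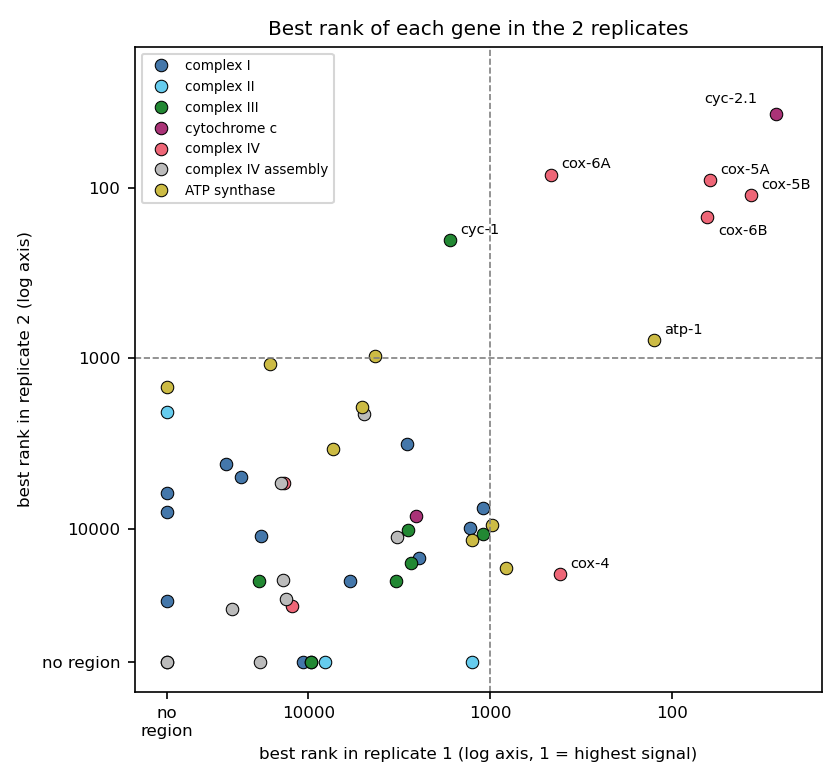
Best rank of each of the 50 genes in replicate 1 (x axis) and replicate 2 (y axis), on inverted log axes, coloured by complex, with genes lacking a region at the axis ends. The 6 genes past rank 1000 in both (dashed lines) lie at the upper right, 4 of them complex IV subunits.

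Of the 12 pooled regions of the top 1000 within 2000 bp of these genes, 11 had summits upstream and 7 of those lay within 500 bp. The other 5 lay 1246 bp (nuo-5), 1051 bp (cyc-2.1), 964 and 764 bp (cox-6A) upstream and 1062 bp downstream (cox-5B). The same counts over all top 1000 regions were not made. Summits fell between protein-coding genes in 9 cases and in introns in 3. The member had the nearest protein-coding 5′ end in 9 of the 12, and another gene did at cox-6B, nuo-5 and the stronger cyc-2.1 peak. Among the 43 genes with any pooled region, the best lay 0 to 500 bp upstream in 19 (44.2%), where this was so for 19.5% of all genes with a region. Every one of the 12 overlapped a region in both replicates, though in 4 cases that of replicate 2 ranked beyond 5000.

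In sequence these 12 windows of 201 bp differed among themselves. GC content ran from 36.8% at the cox-6B peak to 52.7% at the first cox-5B peak, with a median of 39.8%, against 35.3% over 26760 nuclear pooled regions and 44.8% over 213 nuclear IDR peaks. GAGAGA was found in 2 windows (16.7%), the weaker cyc-2.1 peak among them, against 13.4% of pooled windows and 41.3% of the IDR peaks. GCGCGC was in 2 (16.7%), at cox-5B and atp-1, against 1.98% of pooled windows and 14.6% of the IDR peaks. CTGCGTC was in 1 (8.33%), the weaker cyc-2.1 peak, against 2.68% and 16.4%. AGGTCA, the half-site known for many nuclear receptors, was in none of the 12, in 5.12% of pooled windows and in 7.04% of the IDR peaks. At such shares, 12 windows are too few to tell a difference. TTTCAG was in 2 (16.7%), against 35.3% and 18.3%, and TGATAA in 1 (8.33%), against 16.6% and 10.3%.

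The other capitals mark CAACGCA and CGTAAATC, picked after these windows had been read, and the longest run shared by windows of different genes outside chromosome I. Their counts only describe them. CAACGCA occurred in 4 of the 12 windows (among them cox-5B, cox-6B and the stronger cyc-2.1 peak), in 1.09% of pooled windows and in 4.69% of nuclear IDR peaks. CGTAAATC also occurred in 4 (among them cox-4, cox-5B and the stronger cyc-2.1 peak), in 1.1% and 3.29%. That run of 12 bases was shared by the cox-6B peak and the stronger cyc-2.1 peak, and was found in 25 pooled windows (0.0934%) and 3 nuclear IDR peaks. In the 201 bp before the outermost 5′ end of all genes these occurred in 1.11%, 1.25% and 0.175%.

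Other lists of mitochondrial and proton pump genes showed where respiratory genes stood. Among 19 genes for respiratory subunits and ATPase inhibitors outside the set, 4 had a region of the top 1000 (21.1%, against 5.35% of all genes). This list does not hold every such gene: it lacks nduc-2, whose IDR peak is the one shared with cox-6B (rank 66). The ATP synthase c subunit gene Y82E9BR.3 had an IDR peak (chromosome III, rank 208, signal 32.8, 195 bp upstream). R04F11.2, for ATP synthase subunit e, had rank 515, with the summit 1835 bp downstream. The other genes counted, mai-1 (rank 411) and mai-2 (rank 680), encode ATPase inhibitors rather than subunits. The mai-2 region was nearer to B0546.4.

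The citric acid cycle had 3 of 16 genes in the top 1000 (18.8%, against 5.35% of all genes). They were sucl-1, a succinyl-CoA ligase subunit gene with an IDR peak (rank 212, signal 32.6), dld-1 (rank 639) and fum-1, for fumarase (rank 875). The best region within 2000 bp of sucl-1 ranked 140 in replicate 1 and 18639 in replicate 2. Mitochondrial ribosomal proteins had 10 of 70 (14.3%). None of the 70 was in the top 1000 of both replicates, against 1.83% of all genes, and 70 genes are too few to tell a difference. Adenine nucleotide carriers had 1 of 4, ant-1.1, with an IDR peak at rank 84 (signal 51.3). Its summit lay 1587 bp downstream of the 5′ end and nearer to kel-3. The best ranks near ant-1.1 were 104 in replicate 1 and 54 in replicate 2. Assembly factors outside the set had 1 of 5 (sco-1, rank 525), and pyruvate dehydrogenase 1 of 5 (pdhk-2, rank 636). Ubiquinone synthesis (8 genes) and mitochondrial protein import (13 genes) had none, and these lists are too short to tell a difference from all genes.

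Higher shares came from lists outside the mitochondrion. The vacuolar ATPase, a proton pump related to ATP synthase, had 10 of 20 genes in the top 1000 (50%, against 5.35% of all genes). Cytosolic ribosomal proteins had 36 of 81 (44.4%). Some regions were shared by genes of a list, as rank 768 by vha-1 and vha-2, and rank 324 by rpl-24.1 and rps-10. Some lay nearer to a gene outside the list, as at vha-5, vha-8 and vha-17. IDR peaks lay near 1 vacuolar ATPase gene (5%) and 14 ribosomal protein genes (17.3%), against 1.36% of all genes. Among the 14 is rpl-20, through the peak shared with cyc-2.1. The complex IV share of 71.4% rests on 7 genes.

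**Figure D4:**
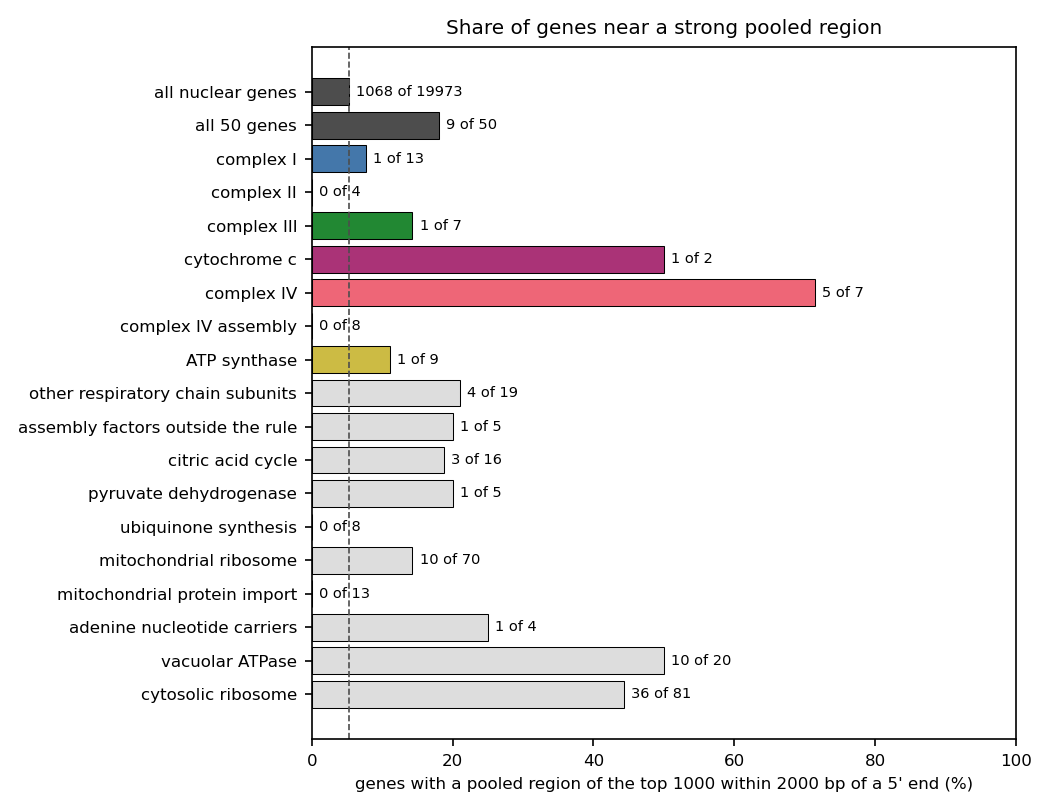
Percent of genes with a pooled region of the top 1000 within 2000 bp of a 5′ end, for all nuclear protein-coding genes (dashed line, 5.35%), the 50 genes, each complex and lists of related genes. Counts stand beside the bars, and complex IV subunits reach 5 of 7.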

How the data were processed

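The data are ChIP-seq of NHR-237 in L4 larvae, in 2 biological replicates. The authors deposited lists of peaks and background regions for each replicate and for both together, and the IDR peaks. Per the deposited text files, each list was made from the alignments and 1 further file that the control-normalized tracks also use. For the aligner, the caller and the IDR threshold, nothing is stated in the labels or files used. The signal values and −log10 q values are the authors' own, deposited per region, and the scale of the signal is not given. Signal was used only to rank regions within a list. At the maximum −log10 q of 2.07, 413 pooled regions are tied, so q was not used for ranking.

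Lists on ce11 were placed on the Ensembl release 115 annotation, with sequence from WBcel235, and the ce10 lists were not used here. The letters of 1 peak window are not reported here. A gene was near a region when the summit lay within 2000 bp of the 5′ end of any of its protein-coding transcripts. A replicate's region matched a pooled one when they overlapped by 1 bp. Ties shared the better rank. In simulated data the method recovered all regions planted within 2000 bp of known 5′ ends, which checked only the placing of summits. Alternatives were other distances, nearest gene, outermost 5′ end, other ranks, other membership and leaving out each replicate. The members and lists were chosen with earlier results of these data known. Every gene was accounted for. Named with regions and replicates were genes with an IDR peak or a pooled region of the top 1000, the best of each complex, those with none, and paralogs. Python 3.11.15, numpy 2.4.6, scipy 1.17.1 and matplotlib 3.10.9 were used.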

Additional observations from a re-analysis of the deposited data

How the results depend on the processing

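All 30 alternatives to the 3 counts over the 50 genes stayed within 1.5 times the count reported. The shares over all genes moved with the settings too, so stable counts alone do not show a stable contrast. Genes with an IDR peak numbered 4 to 6, and over all genes the share ran from 0.626% to 1.36%. cox-6B was lost when only the nearest or only the outermost 5′ end counted, and atp-1 when IDR peaks needed a signal of at least 41.7, their median. With as many of the strongest regions of 1 replicate as there are IDR peaks, the count was 6 without replicate 1 and 5 without replicate 2. Without replicate 1, atp-1 was lost while cox-6A and cyc-1 entered. Genes near a pooled region of the top 1000 numbered 7 to 13, the latter for the top 2000, and 8 and 9 with a replicate left out. Over all genes these shares ran from 2.29% within 500 bp to 9.61% for the top 2000. Without replicate 1, cox-4 and nuo-5 were lost and atp-5 entered. Without replicate 2, cyc-1 and nuo-5 were lost and asg-1 and asg-2 entered, so nuo-5, the complex I gene, was lost both ways. Within 500 bp, nuo-5 and cox-6A were lost. Genes in the top 1000 of both replicates numbered 4 to 7, and cyc-2.1 and cox-6A were lost within 1000 bp. Over all genes that share ran from 0.676% within 500 bp to 3.02% for the top 2000. Complex IV subunits held 2 to 4 of the IDR genes and 3 to 5 of the pooled ones. No paired analysis was possible because the samples form 1 group. The lists hold no read counts, so depth limits cannot be given.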

Other observations

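Many worm genes are transcribed together in operons, which were not used here. A gene ending 500 bp or less upstream on the same strand was found for 16 of the 50 genes, among them nuo-2, nuo-4, nuo-5, cyc-1, cyc-2.1, atp-4, asb-1 and cox-17. The median best pooled rank was 6532.5 over the 14 of these 16 with a region and 3407 over 29 of the other 34. Of the 16, 1 had an IDR peak (6.25%) and 3 a pooled region of the top 1000 (18.8%), and of the 34, 4 (11.8%) and 6 (17.6%). Over all nuclear genes the IDR shares were 1.32% with such a neighbour and 1.37% without, and the top 1000 shares 5.32% and 5.35%. Over all nuclear genes the medians were 9082 with such a neighbour and 9455 without. The 6 genes of the set on X (gas-1, sdha-1, ucr-2.1, ucr-2.2, asb-2 and asg-2) had no IDR peak and no pooled region of the top 1000, where 1.36% and 5.35% of all genes had one, so 6 genes are too few to tell a difference. The 5 of them with a pooled region had the best one 0 to 500 bp upstream, as had 14 of 38 on autosomes (36.8%) and 19.5% of all genes with a region.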
